A study of Oryza sativa Indica Group with 6 samples.

Results

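In rice leaves, 7 array probes for the breakdown of the branched-chain amino acids leucine, isoleucine and valine were followed. They were picked by gene name, with the description of each probe in the array files as the guide, and make up 7 of 21495 gene probes. All 7 passed the filter on dim probes, which 20315 gene probes passed, and all 7 were among the 18907 probes with an unmarked spot on every array. The names rest mostly on the most similar sequence of another species, so such probes are written as "like" that gene. Each name had 1 probe.

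The study set the submergence-tolerant indica rice FR13A beside the susceptible indica rice IR24, with RNA from leaves of both labelled in different dyes on each of 6 arrays, 2 arrays per group. Leaves came from untreated plants at day 14 after sowing (constitutive), from plants submerged for 15 min in transparent bags and harvested at day 14, or from plants submerged for 24 h and harvested at day 15. All plants grew in growth chambers. No group held unsubmerged plants of day 15, so 24 h of submergence and 1 more day of age cannot be told apart. The labels do not say whether replicates came from separate plants, so the spread between them may be technical.

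In plants the branched-chain amino acids are broken down in mitochondria. A transaminase first removes the amino group, and the branched-chain keto acid dehydrogenase complex, built from decarboxylase (E1), acyltransferase (E2) and dihydrolipoamide dehydrogenase (E3) subunits, then releases carbon dioxide and makes an acyl-CoA. For leucine, isovaleryl-CoA dehydrogenase, 3-methylcrotonyl-CoA carboxylase and hydroxymethylglutaryl-CoA (HMG-CoA) lyase carry the chain on to acetyl-CoA and acetoacetate. Electrons from isovaleryl-CoA dehydrogenase pass through electron transfer flavoprotein and its ubiquinone oxidoreductase into the respiratory chain. In Arabidopsis leaves this route is known as a source of electrons for respiration when sugars run short, as in long darkness.

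Levels are normalised log2 intensities of 1 genotype on 1 array, and levels of different probes are not compared. In whole-leaf RNA, fewer cells of a type and less RNA per cell cannot be told apart. Each probe was well above background by the scanner software in all 12 channels, and none was saturated. Signal over local background reached only 6.47 for AK110760, 6.43 for AK108134 and 6.23 for AK061906, against 62.8 to 586 at most for the other 4 probes. Of 42 probes described by leaf proteins (chlorophyll a/b binding, Rubisco, photosystem), 40 were well above background in every channel. For other tissues this held for 7 of 11 seed storage probes, 4 of 9 root probes and 6 of 12 pollen or anther probes. Channels had 81.8% to 95.3% of gene probes well above background. The file headers give 3 scan days, with constitutive replicate 2 alone on 1 of them, so time and scan day are partly mixed.

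The 7 probes were put together with the 24 h values of these arrays known. Their 24 h changes within a genotype are therefore described with no test, and p-values for the 7 are given only for other comparisons. Some of those comparisons share arrays with the known changes. The change of the genotype ratio at 24 h is the difference between the known changes of the genotypes, so its p-values are description. The gene lists further below were also written with earlier results of these data known, and probes were named from them by their calls. The p-values of list probes are therefore description and not independent tests. At 24 h, 5 of the 7 probes were higher than in constitutive leaves of both genotypes: the transaminase-like, E1-like, isovaleryl-CoA dehydrogenase-like, 3-methylcrotonyl-CoA carboxylase and flavoprotein oxidoreductase-like ones. For these 5 both 24 h values lay above both constitutive values in each genotype, a position that 25.5% of all probes held in FR13A and 25.2% in IR24. Both 24 h values lay below both constitutive values for AK110760 in FR13A and for AK108134 in IR24, as for 27.4% of all probes in FR13A and 25.7% in IR24. Nothing is read from these shares, since the same contrast was known when the probes were put together. The median change of the 7 on the log2 scale was 1.40 in FR13A and 1.52 in IR24, beside medians over all probes of -0.0011 in FR13A and 0.0025 in IR24.

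The transaminase-like probe AK105963 (similar to Arabidopsis bcat5) was put at the first step, the transfer of the amino group, by its description alone. That description does not say in which part of the cell the enzyme works. Whether this probe stands for breakdown in mitochondria or for synthesis in plastids was not tested. In FR13A its log2 level was 9.16 and 9.46 in constitutive leaves, 8.81 and 9.49 at 15 min and 11.99 and 11.91 at 24 h. In IR24 it was 8.04 and 7.93 in constitutive leaves, 9.01 and 8.34 at 15 min and 12.12 and 12.08 at 24 h. Both genotypes reached about the same level at 24 h, while the constitutive IR24 values lay below all other values of this probe. The 24 h difference from constitutive leaves was 2.64 in FR13A (standard error of the limma fit, SE, 0.34; 6.24-fold) and 4.12 in IR24 (SE 0.34; 17.3-fold), the largest among the 7 probes in each genotype.

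Next, 3 probes were described by subunits of the keto acid dehydrogenase complex. AK105761, similar to the Arabidopsis E1 beta subunit BCDH beta1, the decarboxylase part, measured 10.98 and 10.52 in constitutive FR13A leaves, 11.08 and 11.33 at 15 min and 12.13 and 12.17 at 24 h. In IR24 it measured 10.58 and 10.36 in constitutive leaves, 11.15 and 11.02 at 15 min and 11.87 and 12.10 at 24 h. Its levels went up step by step over the 3 times in both genotypes, with no overlap between times. The 24 h difference was 1.40 in FR13A (SE 0.18; 2.64-fold) and 1.52 in IR24 (SE 0.18; 2.87-fold).

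The other two complex probes did not share this pattern. AK110760, similar to a bovine branched-chain keto acid dehydrogenase, measured 7.22 and 7.62 in constitutive FR13A leaves, 7.34 and 7.0032 at 15 min and 7.0045 and 7.20 at 24 h. The IR24 values were 7.02 and 8.03 in constitutive leaves, 7.71 and 7.06 at 15 min and 7.33 and 7.34 at 24 h. The IR24 times overlap, and the constitutive IR24 arrays are the farthest apart of any pair for this probe. Its 24 h difference was -0.32 in FR13A and -0.19 in IR24 (SE 0.30 each).

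AK108134, similar to the trout lipoamide acyltransferase, the E2 core of the complex, measured 7.75 and 7.48 in constitutive FR13A leaves, 7.56 and 7.85 at 15 min and 7.60 and 7.25 at 24 h. In IR24 it measured 7.63 and 7.71 in constitutive leaves, 7.53 and 7.96 at 15 min and 7.48 and 7.34 at 24 h. All values lay within 0.71 of each other, the narrowest range of the 7 probes. Its 24 h difference was -0.19 in FR13A and -0.26 in IR24 (SE 0.19 each). Both AK110760 and AK108134 are named from animal sequences and are dim. Of the probes that were higher at 24 h, AK065934 is also named from an animal sequence and AK061906 is about as dim.

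Among the later steps, AK066314, similar to Arabidopsis isovaleryl-CoA dehydrogenase, measured 11.23 and 11.10 in constitutive FR13A leaves, 11.36 and 11.84 at 15 min and 13.00 and 13.01 at 24 h. In IR24 it measured 11.18 and 10.66 in constitutive leaves, 12.05 and 11.04 at 15 min and 13.38 and 13.59 at 24 h. The 24 h values stood above all earlier ones in both genotypes, and the 15 min IR24 arrays lay far apart. The 24 h difference was 1.84 in FR13A (SE 0.39; 3.58-fold) and 2.57 in IR24 (SE 0.39; 5.93-fold).

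AK061906, a rice 3-methylcrotonyl-CoA carboxylase subunit that carries biotin, measured 6.45 and 6.37 in constitutive FR13A leaves, 6.77 and 6.85 at 15 min and 7.71 and 7.21 at 24 h. The IR24 values were 6.71 and 6.35 in constitutive leaves, 6.71 and 6.75 at 15 min and 6.99 and 7.28 at 24 h. The 24 h values were the highest in both genotypes, by a small margin in IR24. The 24 h difference was 1.05 in FR13A (SE 0.23; 2.07-fold) and 0.61 in IR24 (SE 0.23; 1.52-fold). With the processed signals of the scanner software in place of normexp and loess it was 1.97 in FR13A and 1.20 in IR24.

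AK065934, similar to the human electron transfer flavoprotein-ubiquinone oxidoreductase, which hands electrons to the respiratory chain, measured 8.62 and 8.36 in constitutive FR13A leaves, 9.31 and 8.70 at 15 min and 10.37 and 9.94 at 24 h. The IR24 values were 8.77 and 8.45 in constitutive leaves, 8.96 and 8.99 at 15 min and 10.05 and 10.30 at 24 h. The order of the times was the same in both genotypes, with no overlap between them. The 24 h difference was 1.66 in FR13A (SE 0.27; 3.17-fold) and 1.56 in IR24 (SE 0.27; 2.95-fold).

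**Figure D1:**
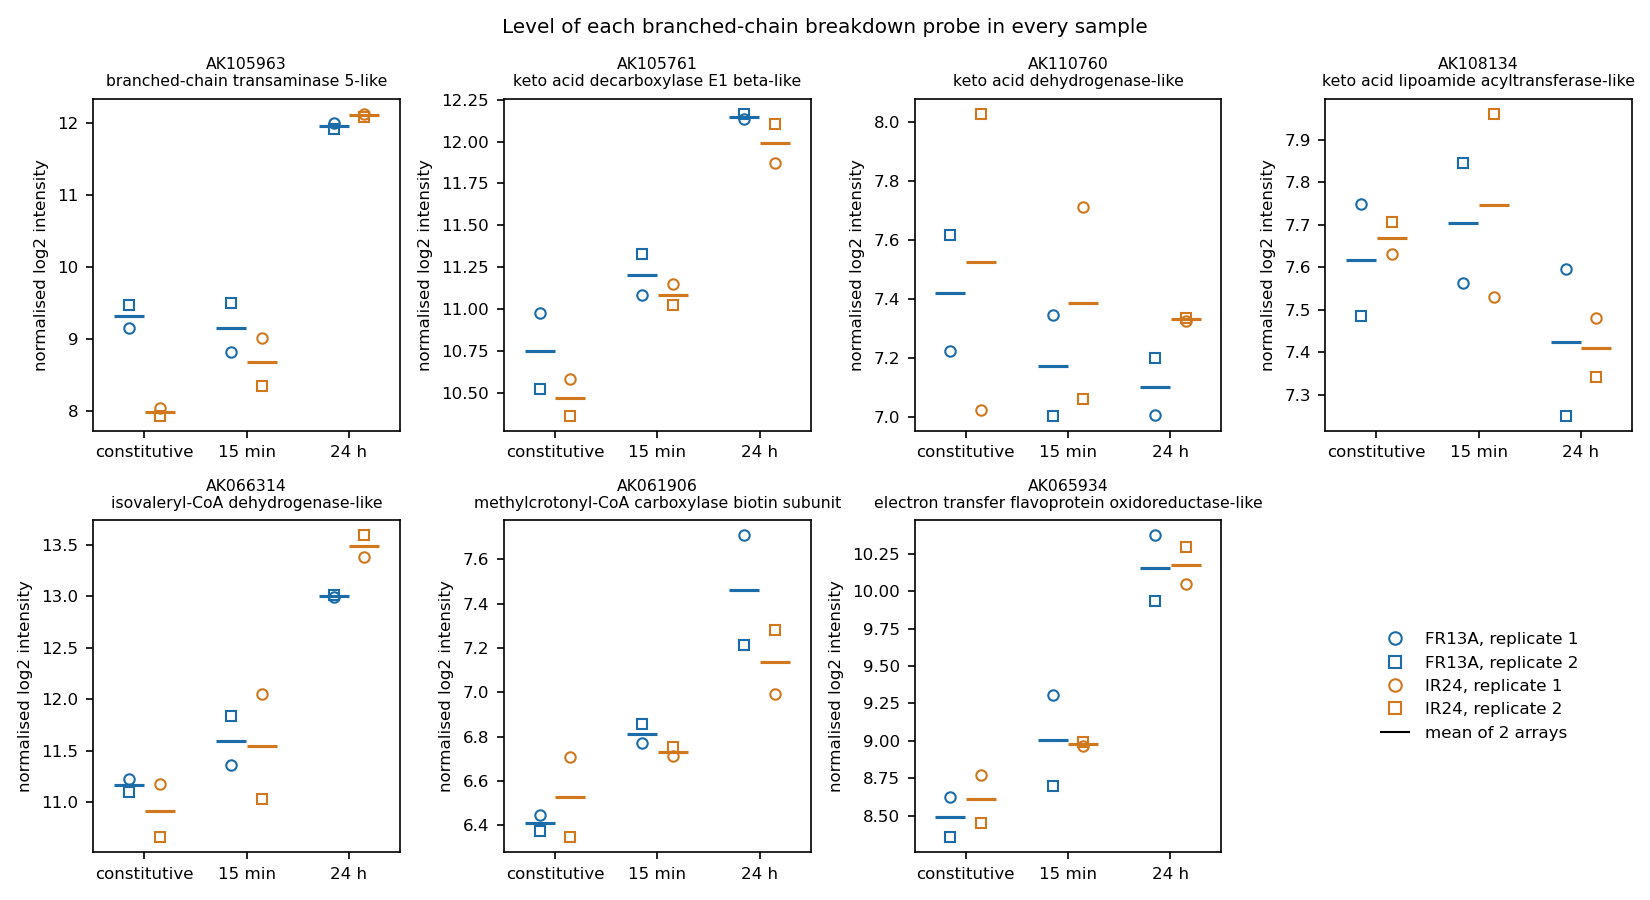
Normalised log2 intensity (y axis, own scale per panel) of each of the 7 probes in constitutive, 15 min and 24 h leaves (x axis), with FR13A in blue left of IR24 in orange, circles for replicate 1, squares for replicate 2 and a bar for the mean of 2 arrays. The 24 h points stand above the constitutive ones in 5 panels, and AK110760 and AK108134 show no such gap.

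The 24 h values could also be set against 15 min arrays scanned on the same day with the same dyes. On scan day 2 the transaminase-like AK105963 differed by 3.18 in FR13A and 3.11 in IR24, and on day 3 by 2.42 in FR13A and 3.74 in IR24. The median of the 7 probes was 1.05 on day 2 and 0.84 on day 3 in FR13A, and 0.73 on day 2 and 1.08 on day 3 in IR24. The medians over all probes were -0.0091 on day 2 and -0.020 on day 3 in FR13A, and -0.0025 on day 2 and -0.032 on day 3 in IR24. Against the constitutive array of day 3, which carries the dyes the other way round, the 24 h median was 1.19 in FR13A and 1.52 in IR24. With scan day as a term in the fit, the 24 h over constitutive differences of AK066314 were 1.64 in FR13A and 2.37 in IR24, and those of AK065934 were 1.42 in FR13A and 1.31 in IR24.

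**Figure D2:**
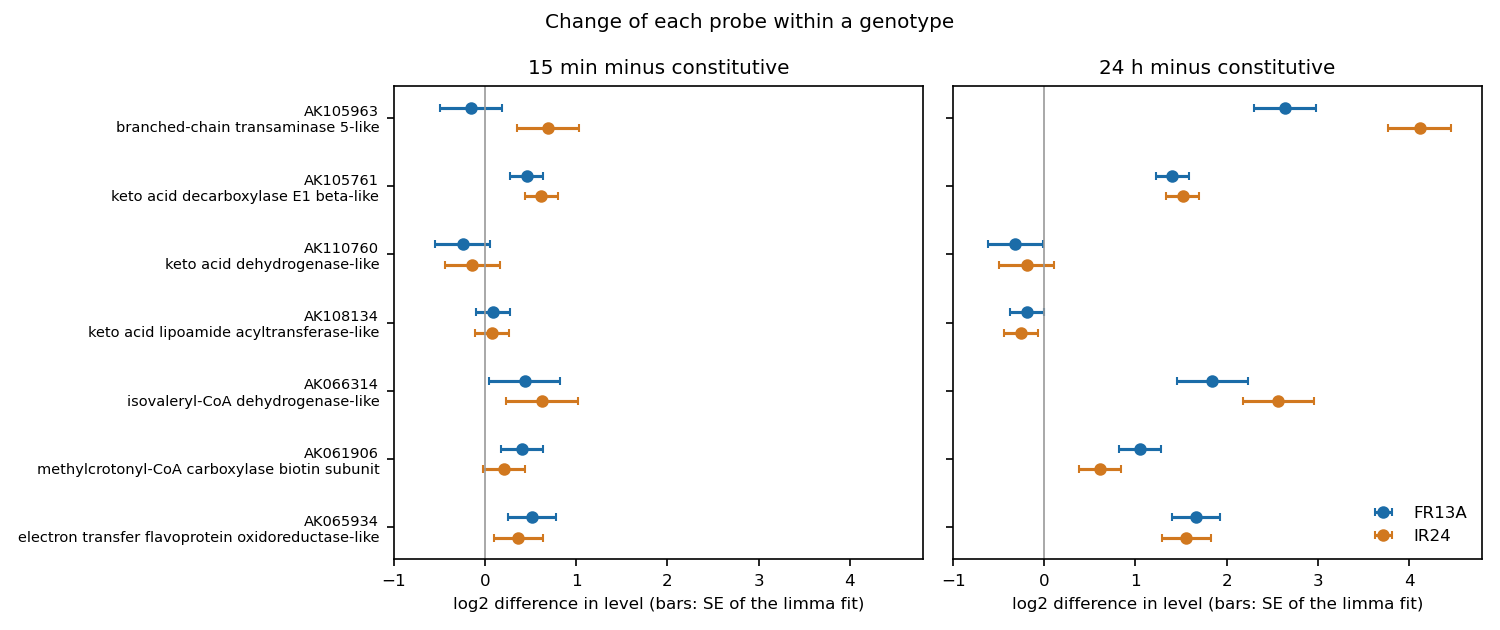
Log2 difference in level from constitutive leaves (x axis; bars are SE of the limma fit) at 15 min (left panel) and 24 h (right panel) for each probe (rows), with FR13A drawn above IR24. The 24 h differences run from -0.32 to 2.64 in FR13A and from -0.26 to 4.12 in IR24, and the 15 min differences stay between -0.25 and 0.69.

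A separate question was whether 15 min under water was enough to move these genes. None of the 7 passed the limma test at 15 min over constitutive (adjusted p under 0.05 over all probes), where 1.59% of all probes were called in FR13A and 2.1% in IR24. The median difference of the 7 was 0.40 in FR13A and 0.37 in IR24, with SEs of single probes from 0.18 to 0.39. The medians over all probes were 0.0049 in FR13A and 0.013 in IR24. The constitutive arrays are also the reference of the known 24 h change, so this comparison is not independent of how the probes were chosen. The E1 beta-like AK105761 came closest, at 0.46 in FR13A (SE 0.18, unadjusted p = 0.0321, limma adjusted p = 0.401) and 0.62 in IR24 (SE 0.18, unadjusted p = 0.00764, limma adjusted p = 0.184), and it was the 1 probe of the 7 with an unadjusted p under 0.05 in each genotype, beside 10.6% of all probes in FR13A and 10.1% in IR24. The transaminase-like AK105963 was at -0.16 in FR13A and 0.69 in IR24 (limma adjusted p = 0.576). Without 15 min replicate 2 the IR24 value of AK105963 became 1.03, with a limma adjusted p of 0.0400, and without replicate 1 it became 0.36 and did not pass. A lone replicate was then taken to vary like the other groups.

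Whether the tolerant and the susceptible rice differed in these genes was read from the ratio within each array, FR13A over IR24. None of the 7 passed over the mean of the 3 times, where 20.2% of all probes were called. None passed in constitutive leaves (6.15% of all probes called), at 15 min (5.34%) or at 24 h (7.62%). By unadjusted p under 0.05 in the same limma fit, 2 of the 7 passed over the mean of the 3 times (33.2% of all probes), 1 in constitutive leaves (20.1%), 0 at 15 min (18.8%) and 0 at 24 h (21%), which is near or below the shares of all probes. Over all 4 comparisons the adjusted p-values of the 7 ranged from 0.0731 to 0.984.

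The probe nearest to a genotype difference was the transaminase-like AK105963. Its log2 ratio was 1.12 and 1.53 in constitutive leaves, -0.20 and 1.15 at 15 min and -0.13 and -0.17 at 24 h. Constitutive FR13A was above IR24 on both arrays, the 15 min arrays went opposite ways, and the 24 h arrays were close to 0. The constitutive mean was 1.33 (SE 0.31, 2.51-fold, limma adjusted p = 0.0731). It was 1.56 with the processed signals (limma adjusted p = 0.0362) and 1.56 in the authors' deposited table of ratios refitted in the same way (limma adjusted p = 0.0365). Leaving out 15 min replicate 1 or replicate 2 also brought it under the threshold (1.33, limma adjusted p = 0.00678). With scan day as a term the constitutive ratio was 0.97 (limma adjusted p = 0.226), and over all alternatives its limma adjusted p ranged from 0.00678 to 0.344. At 15 min the mean ratio was 0.48 (limma adjusted p = 0.519), and it was 1.15 without 15 min replicate 1 (limma adjusted p = 0.0428) and -0.20 without replicate 2. The mean over the 3 times was 0.55 (limma adjusted p = 0.0876), and it was 0.78 without 15 min replicate 1 (limma adjusted p = 0.00444) and 0.33 without replicate 2, which did not pass.

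**Figure D3:**
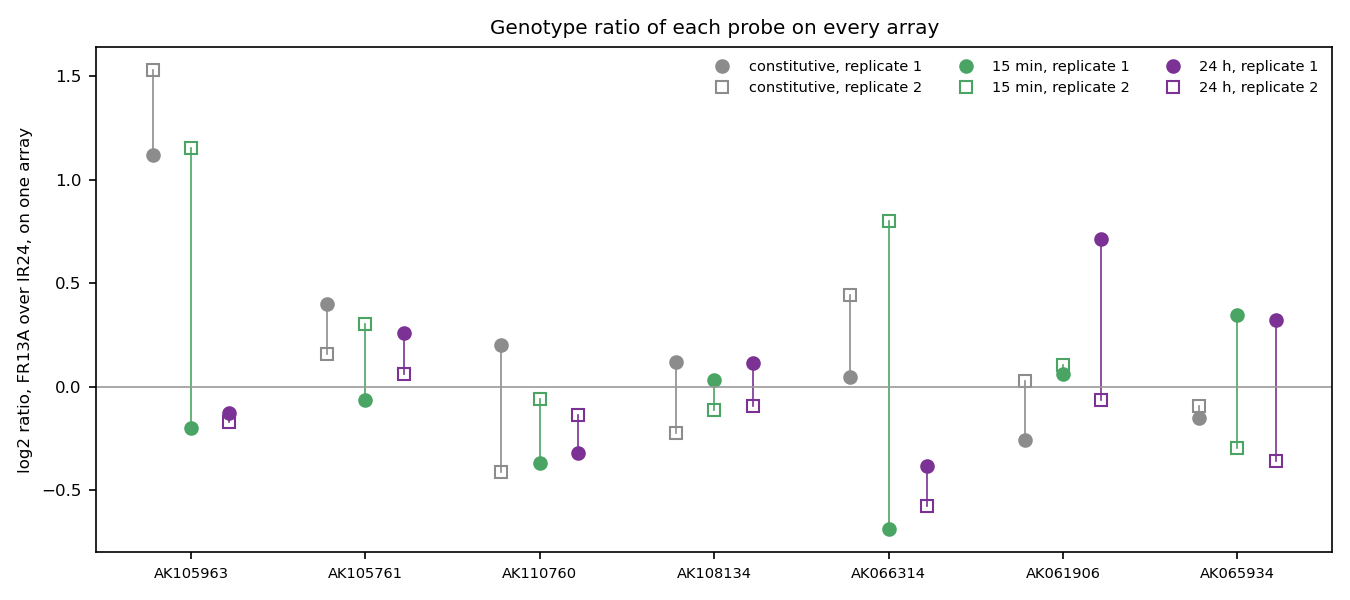
Log2 ratio of FR13A over IR24 on each of the 6 arrays (y axis) for the 7 probes (x axis), with constitutive, 15 min and 24 h from left to right in grey, green and purple, filled circles for replicate 1 and open squares for replicate 2, joined by a line. AK105963 has both constitutive arrays above 1.1 and both 24 h arrays near 0, and its 15 min arrays lie apart.

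None of the other 6 probes passed at any time. At 24 h the isovaleryl-CoA dehydrogenase-like AK066314 was at -0.38 and -0.58 on its 2 arrays (mean -0.48, SE 0.34, limma adjusted p = 0.504). The carboxylase AK061906 was at 0.72 and -0.07 (mean 0.32, SE 0.19, limma adjusted p = 0.420), so its arrays disagreed in sign. The E1 beta-like AK105761 was at 0.26 and 0.06 (mean 0.16, SE 0.13, limma adjusted p = 0.565). The median ratio of the 7 probes was -0.052 in constitutive leaves, 0.056 at 15 min and -0.018 at 24 h, and the median over all probes was -0.0048, -0.0051 and -0.0048 at these times.

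The difference between the genotypes in their 24 h change is the change of that ratio. Both 24 h changes were known when the probes were put together. The p-values of the 7 for this change are therefore description and not an independent test. The change of the ratio did not pass for any of the 7 probes, in a comparison that called 0.108% of all probes. Of the 7, 1 had an unadjusted limma p under 0.05, beside 6.96% of all probes. That probe was AK105963, whose ratio was lower at 24 h than in constitutive leaves by a log2 difference of -1.47 (SE 0.44, unadjusted p = 0.0163, limma adjusted p = 0.503). Fitting scan day as a term made this difference -0.94 (limma adjusted p = 0.442). AK066314 was at -0.73 (SE 0.48, limma adjusted p = 0.860), and the 5 others lay between -0.12 and 0.44. From constitutive leaves to 15 min, 0% of all probes were called by limma (427 of 20311 had an unadjusted p under 0.05), and the 7 probes lay between -0.85 and 0.20.

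Seen over the 12 channels, the probes fell into those that followed the rest and those that did not. Pearson's r with the mean of the other 6 was 0.96 for AK066314, 0.95 for AK105761, 0.93 for AK105963, 0.92 for AK065934 and 0.85 for AK061906. It was -0.36 for AK110760 and -0.64 for AK108134. These are descriptions over 12 channels that share arrays and times. The 24 h channels among them were known when the probes were put together, so this likeness is not independent of that choice.

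Outside the 7 probes, 17 further array probes were described by enzymes of the same pathway, and 14 of them could be tested within a genotype. At 24 h over constitutive, 3 rose and 1 fell in FR13A, where 4.22% of all probes rose and 5.78% fell. In IR24 2 rose and 1 fell, where 4.47% of all probes rose and 4.46% fell. The median change of the 14 was 0.16 in FR13A and -0.056 in IR24. At 15 min over constitutive, 0 of 14 passed in either genotype.

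The largest rise among them was of the HMG-CoA lyase-like probe AK068875, the last step of leucine breakdown. In FR13A it measured 10.19 and 10.06 in constitutive leaves, 10.23 and 10.50 at 15 min and 11.65 and 11.48 at 24 h. The IR24 values were 10.14 and 9.83 in constitutive leaves, 10.54 and 10.04 at 15 min and 11.55 and 11.48 at 24 h. Both genotypes were alike at each time, and the 24 h values stood apart from all earlier ones. Its 24 h rise was 1.44 in FR13A (SE 0.23, limma adjusted p = 0.00407) and 1.53 in IR24 (SE 0.23, limma adjusted p = 0.00305). The call was lost in FR13A without constitutive replicate 2 (1.36, limma adjusted p = 0.0553), and without 24 h replicate 1 it was lost in both FR13A (1.35, limma adjusted p = 0.0645) and IR24 (1.49, limma adjusted p = 0.0540). With scan day as a term it was lost in both genotypes (1.27 in FR13A, limma adjusted p = 0.0875; 1.36 in IR24, limma adjusted p = 0.0707). Another probe with the same description, AK066940, was at -0.40 in FR13A and -0.28 in IR24, and neither difference passed.

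Transaminases moved in both directions. AK067076, whose description names an Arabidopsis branched-chain aminotransferase-like protein, fell by 2.47 in FR13A (SE 0.31, limma adjusted p = 0.00128) and by 1.55 in IR24 (SE 0.31, limma adjusted p = 0.0142). Its log2 level at 24 h was 12.28 and 12.50 in FR13A and 13.68 and 13.94 in IR24, against 15.14 and 14.58 in constitutive FR13A and 15.41 and 15.31 in constitutive IR24. The spot was saturated in 3 of 12 channels (FR13A constitutive replicate 1, IR24 constitutive replicate 2 and IR24 15 min replicate 2), so 1 of the 2 constitutive levels in each genotype is a lower limit and both falls may be understated. The IR24 call was lost without either constitutive array or either 24 h array (values of -1.42 to -1.78, highest limma adjusted p = 0.165), while the FR13A call held without any one array and with scan day as a term. The IR24 value with that term was -1.74 (limma adjusted p = 0.0906). At 24 h its ratio of FR13A over IR24 was -1.42 (SE 0.25, limma adjusted p = 0.0280), and the change of that ratio did not pass (-0.92, limma adjusted p = 0.685).

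The potato BCAT2-like transaminase AK062472 rose by 0.85 in FR13A (SE 0.18, limma adjusted p = 0.0178) and by 0.69 in IR24 (SE 0.18, limma adjusted p = 0.0475). Of the bcat5-like probes other than AK105963, AK106376 rose in FR13A by 0.69 (SE 0.18, limma adjusted p = 0.0410) and was at 0.45 in IR24 (limma adjusted p = 0.189), and AK108687 was at 0.72 in FR13A and 0.58 in IR24 (limma adjusted p = 0.121 in FR13A and 0.233 in IR24). These calls lost significance without at least 1 of the arrays: AK062472 without constitutive replicate 1 or either 24 h array in FR13A, and AK106376 without any one of the 6 arrays. The IR24 call of AK062472 held only without constitutive replicate 1 among the 6 arrays left out in turn. Fitting scan day as a term also ended the calls of AK062472 (0.82 in FR13A, limma adjusted p = 0.183, and 0.65 in IR24, limma adjusted p = 0.292) and of AK106376 (0.61 in FR13A, limma adjusted p = 0.274).

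**Figure D4:**
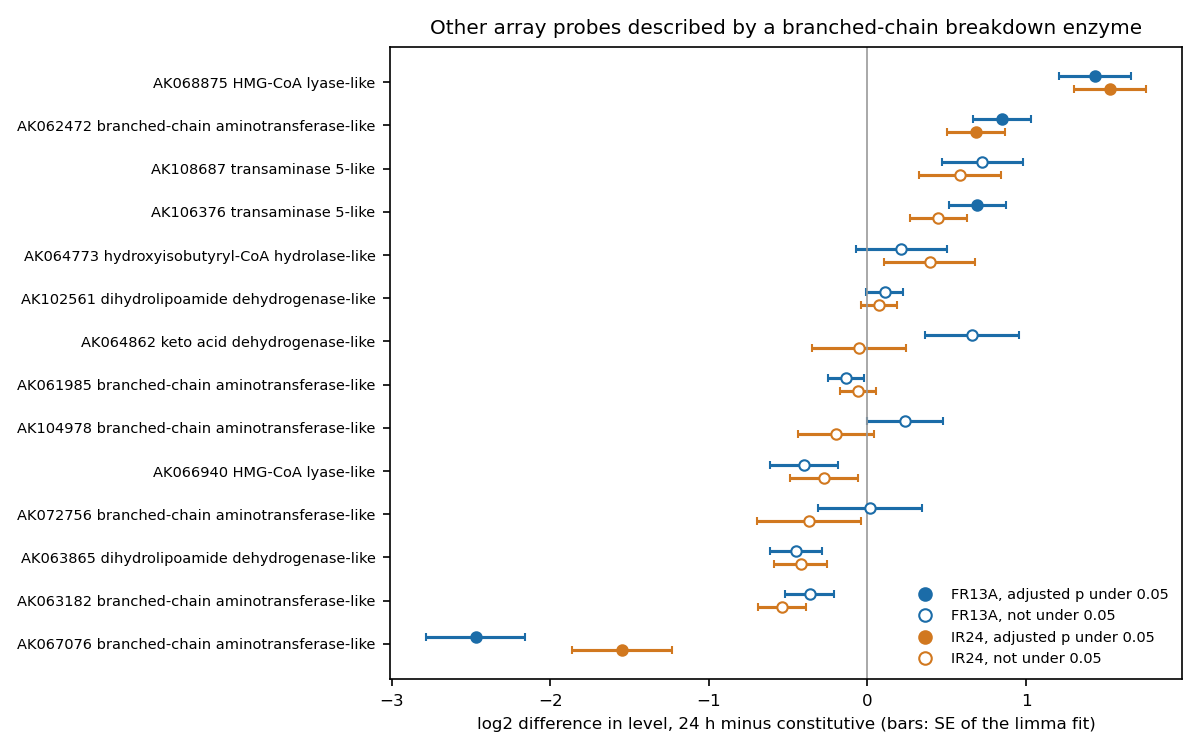
Log2 difference at 24 h over constitutive leaves (x axis; bars are SE of the limma fit) for the 14 testable further pathway probes (rows, ordered by IR24), with FR13A in blue above IR24 in orange and filled points for a limma adjusted p under 0.05. HMG-CoA lyase-like AK068875 lies farthest to the right and aminotransferase-like AK067076 farthest to the left, at -2.47 in FR13A and -1.55 in IR24, where 1 of 2 constitutive channels of each genotype was saturated and the fall may be understated.

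The remaining complex subunits did not follow the E1 beta-like probe. The keto acid dehydrogenase-like AK064862 was at 0.66 in FR13A and -0.051 in IR24 (limma adjusted p = 0.223 in FR13A and 0.963 in IR24). Its 24 h FR13A arrays lay far apart, at 6.63 and 7.58, against 6.58 and 6.30 in constitutive leaves. Dihydrolipoamide dehydrogenase-like AK063865, the E3 type that the complex shares with other dehydrogenases, was at -0.45 in FR13A and -0.42 in IR24, and neither passed. Another dihydrolipoamide dehydrogenase-like probe, AK066632, had a marked spot on 1 array and, with that spot kept, fell by 1.18 in FR13A (limma adjusted p = 0.00758) and by 0.99 in IR24 (limma adjusted p = 0.0179). The probe AK065165, described by the same carboxylase subunit as AK061906, was also marked on 1 array, 24 h replicate 2. With that spot kept, it was at 0.43 in FR13A and 0.37 in IR24 (limma adjusted p = 0.535 in FR13A and 0.645 in IR24). On the unmarked 24 h array it measured 6.53 in FR13A, below 6.79 and 6.56 in constitutive leaves. In IR24 it measured 6.48 there, below 6.73 and 6.67, so the sign of its change rests on the marked spot.

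A genotype difference at every time was called for 1 of the 17 probes, the aminotransferase-like AK104978, singled out after its values were seen. Its level in FR13A was 7.53 and 7.03 in constitutive leaves, 6.89 and 7.21 at 15 min and 7.73 and 7.30 at 24 h, and none of its 6 IR24 channels was well above background. Set against the lowest level well above background, or its own where higher, FR13A was 2.29-fold higher in constitutive leaves, 2.14-fold at 15 min and 3.37-fold at 24 h. A probe not well above background can also lie over that lowest level, so these folds are not strict lower limits. The measured ratios had limma adjusted p = 0.00711, 0.0103 and 0.00187 at these times. These p-values use the dim IR24 channels and do not test the folds against that lowest level.

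Neighbouring pathways were counted in the same way at 24 h over constitutive. Over all probes 4.22% rose and 5.78% fell in FR13A, and 4.47% rose and 4.46% fell in IR24. Of 5 testable probes for the synthesis of branched-chain amino acids, which takes place in plastids, 2 rose and 0 fell in each genotype. Ketol-acid reductoisomerase-like AK072075 rose by 1.09 in FR13A (SE 0.15, limma adjusted p = 0.00220) and by 0.76 in IR24 (SE 0.15, limma adjusted p = 0.0144). Dihydroxyacid dehydratase-like AK102083 rose by 0.95 in FR13A (SE 0.17, limma adjusted p = 0.00703) and by 0.69 in IR24 (SE 0.17, limma adjusted p = 0.0336). With 1 array left out, the FR13A call of AK072075 held in all 6 cases, and the IR24 call of AK102083 was lost in all 6. The FR13A call of AK102083 and the IR24 call of AK072075 were lost without 24 h replicate 1 and without constitutive replicate 2. The IR24 call of AK072075 was also lost without 24 h replicate 2.

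Of 19 testable probes for the breakdown of other amino acids, 2 rose and 2 fell in FR13A and 3 rose and 1 fell in IR24. The shares of all probes were 4.22% risen and 5.78% fallen in FR13A, and 4.47% risen and 4.46% fallen in IR24. Glutamate decarboxylase OsGAD1 (AK061977), which makes the stress-related amino acid GABA, fell by 1.44 in FR13A (SE 0.20, limma adjusted p = 0.00183) and by 1.64 in IR24 (SE 0.20, limma adjusted p = 0.00100). OsGAD2 (AK071556) fell by 1.18 in FR13A (SE 0.29, limma adjusted p = 0.0300) and was at -0.36 in IR24 (limma adjusted p = 0.568), and in IR24 it rose by 1.72 at 15 min (limma adjusted p = 0.0150). Both OsGAD2 calls were lost without either constitutive array or either 24 h array, and with scan day as a term (AK071556 at 24 h in FR13A -1.06, limma adjusted p = 0.253, and at 15 min in IR24 1.85, limma adjusted p = 0.186). Grape ornithine aminotransferase-like AK099445 rose by 0.82 in FR13A (limma adjusted p = 0.0442) and by 0.89 in IR24 (limma adjusted p = 0.0340), and both calls were lost without either constitutive array or either 24 h array. The barley-like 4-hydroxyphenylpyruvate dioxygenase AK058890, of tyrosine breakdown, rose by 1.27 in FR13A (SE 0.17, limma adjusted p = 0.00144) and was at 0.20 in IR24, but the change of its ratio between genotypes did not pass (1.08, limma adjusted p = 0.211).

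Of 9 testable probes whose descriptions matched the fatty acid beta-oxidation list, 2 rose in FR13A and 3 in IR24, and none fell in either. Among all probes 4.22% rose and 5.78% fell in FR13A, and 4.47% rose and 4.46% fell in IR24. The list went by spelling and did not hold the enoyl CoA hydratase-like AK068241 or the At3g51840-like probes, which are described separately. Of the enoyl-CoA hydratase-like probes on that list, AK101814 and AK068963 passed in both genotypes. AK101814 rose by 0.57 in FR13A (limma adjusted p = 0.0189) and 0.48 in IR24 (limma adjusted p = 0.0415). AK068963 rose by 0.52 in FR13A (limma adjusted p = 0.0485) and 0.72 in IR24 (limma adjusted p = 0.0128). The IR24 call of AK101814 and the FR13A call of AK068963 were each lost under 10 of 12 alternatives, every single array left out among them. The acyl-CoA oxidase-like AK066934 rose in IR24 by 0.94 (limma adjusted p = 0.0377) and was at 0.85 in FR13A (limma adjusted p = 0.0510). Each of these calls was lost without either constitutive array and without either 24 h array. Of 9 probes for asparagine synthetase and senescence-associated proteins, 0 passed at 24 h over constitutive in either genotype by limma. Senescence-related At2g17840-like AK111568 was lower at 24 h than at 15 min, by a log2 difference of -1.63 in FR13A (limma adjusted p = 0.0133) and -1.45 in IR24 (limma adjusted p = 0.0231). Both calls were lost without either 24 h array, the IR24 one also without either constitutive array. At 15 min over constitutive this probe was at 1.25 in FR13A (limma adjusted p = 0.139) and 1.02 in IR24 (limma adjusted p = 0.245). Its 15 min FR13A arrays lay apart, at 11.15 and 9.93, against 9.46 and 9.12 in constitutive leaves and 8.93 and 8.90 at 24 h. With scan day as a term, the 24 h over constitutive calls that held among the named probes of the synthesis, other amino acid and beta-oxidation lists were those of AK072075 and AK058890 in FR13A and of OsGAD1 (AK061977) in both genotypes.

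Among all described probes that are not members, those closest in pattern to the mean of the 7 over the 12 channels were taken as the 6 with the highest Pearson's r of 11525 compared. They were HMG-CoA lyase-like AK068875 (r = 0.990), the chloroplast Clp protease subunit CLPD1 (AK068727, r = 0.989), a rice nucleic acid binding protein (AK058384, r = 0.989), a meadow fescue Xet3-like probe (AK063497, r = 0.984), a chickpea enoyl-CoA hydratase-like probe (AK068241, r = 0.982) and an Arabidopsis At2g27920-like probe (AK101389, r = 0.979). At 24 h over constitutive CLPD1 was at 2.66 in FR13A and 3.68 in IR24, and AK068241 at 1.496 in FR13A and 1.67 in IR24. These are descriptions over channels that share arrays and times.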

How the data were processed

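Leaf RNA of both genotypes was measured on 6 dual-colour arrays. Per the file headers, the deposited array files hold mean spot and median background intensity and processed intensity in both channels. The deposited series table holds log10 ratios of FR13A over IR24. Feature Extraction 8.1 of Agilent is named in the submitters' processing notes. Replicate 1 has FR13A in Cy5 and replicate 2 in Cy3, and ratios were turned accordingly.

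Background was corrected with normexp (offset 50) and arrays normalised by loess in limma 3.58.1 (R 4.3.3). Marked spots were set to missing. Filtering kept a probe that was well above background, in either channel, on 2 or more arrays. Ratios were fitted with 1 mean per time (3 residual and 2.62 prior degrees of freedom). Differences between times within 1 genotype were fitted on separate channels after Aquantile normalisation (intraspot correlation 0.498, 3.43 prior degrees of freedom), which rests on normalisation between arrays and uses probes without a marked spot. All limma tests were two-sided with Benjamini-Hochberg adjustment over all probes, and calls needed an adjusted p below 0.05.

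The members and gene lists were chosen with earlier results of these data known. Lists are patterns on probe descriptions. From each list up to 4 probes called in most of the 6 changes within a genotype were named, and other probes were named after their values were seen. The array accessions matched 0 entries of the RefSeq table, so no coordinates are given. The autophagy pattern also caught probes with other functions by their letters. Both fits were tested on simulated data. The number of arrays limits the precision.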

Additional observations from a re-analysis of the deposited data

Results flagged for a closer look

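The senescence-associated protein 5-like probe AK065366 had both 24 h values below both constitutive values in FR13A and above them in IR24, and neither change passed the limma test (adjusted p = 0.744 in FR13A and 0.259 in IR24). In FR13A its log2 level was 6.06 and 6.03 at 24 h, against 6.14 and 6.13 in constitutive leaves. In IR24 it was 6.50 and 6.38 at 24 h, against 6.17 and 6.19 in constitutive leaves. The FR13A change minus the IR24 change was -0.35 (SE 0.11), and as the change of the ratio it did not pass (unadjusted p = 0.0251, limma adjusted p = 0.586). The probe was well above background in only 6 of 12 channels, and in neither FR13A channel at 24 h, so the FR13A value at 24 h is an upper limit and no direction is read from it. How far levels near background bear on this was not tested.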

How the results depend on the processing

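For the 7 probes, centring each array on its median in place of loess, and the processed signals in place of normexp and loess, left every genotype comparison without a call except the constitutive one of AK105963, given above. The median 24 h over constitutive change of the 7 was 1.86 in FR13A with processed signals (1.40 as reported), and 1.31 in IR24 with scan day as a term (1.52 as reported). Their median FR13A over IR24 ratio was 0.0802 in constitutive leaves with scan day as a term and -0.0842 at 15 min with median centring. With median centring, calls of FR13A over IR24 numbered 1037 over the mean of times (4096 as reported), 240 in constitutive leaves (1249), 183 at 15 min (1084) and 308 at 24 h (1546). With scan day as a term they were 615 in constitutive leaves. For 15 min over constitutive that term left 30 calls in FR13A (300) and 47 in IR24 (397), and for 24 h over constitutive 555 in FR13A (1890) and 534 in IR24 (1689). The change of the ratio at 24 h had 0 limma calls with median centring, with scan day or with the replicate block (22 as reported, 1413 probes at an unadjusted p under 0.05). The replicate number also fixes the dyes. Deviations of same-numbered arrays correlated at -0.51 to 0.40 and not all above 0.1, so the numbers were not taken to pair the samples. The 15 min and 24 h arrays of the same number do share dyes and a scan day (0.40 for their ratios). With the replicate block, calls numbered 4588 over the mean of times and 1921 in FR13A and 1755 in IR24 at 24 h over constitutive.

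With 1 array left out in turn, calls ranged from 2627 to 3418 over the mean of times, 178 to 1303 in constitutive leaves, 307 to 708 at 15 min, 447 to 1479 at 24 h and 0 to 7 for the change of the ratio at 24 h. They ranged from 21 to 298 in FR13A and 93 to 497 in IR24 for 15 min over constitutive, from 752 to 2169 in FR13A and 581 to 1960 in IR24 for 24 h over constitutive, and from 863 to 2087 in FR13A and 715 to 1769 in IR24 for 24 h over 15 min. The median of the 7 probes ranged from -0.0616 to 0.104 for the mean ratio over times, -0.0521 to 0.118 in constitutive leaves, -0.0627 to 0.103 at 15 min, -0.262 to 0.0528 for the change of the ratio at 15 min, -0.24 to 0.076 for that at 24 h, and 0.19 to 0.44 in FR13A for 15 min over constitutive. The causes were not tested. Fits with scan day as a term or an array left out used the intraspot correlation of the fit to all 6 arrays. The calls above rest on 2 arrays per time, and dim probes limit AK110760, AK108134 and AK061906.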

Other observations

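The autophagy pattern held 8 testable probes, of which 1 rose at 24 h over constitutive in FR13A and 2 rose in IR24. Of all probes, 4.22% rose in FR13A and 4.47% in IR24. The autophagy-pattern probes that rose, AK071561 and AK063762, both carry the description At3g51840/AtG6 and were caught by its letters. In Arabidopsis At3g51840 is an acyl-CoA oxidase of peroxisomal fatty acid breakdown, not an autophagy gene. AK071561 rose by 2.45 in FR13A (SE 0.24, limma adjusted p = 0.000310) and by 2.04 in IR24 (SE 0.24, limma adjusted p = 0.000835), and its calls were kept under the 12 alternatives run, each single array left out among them. AK063762 rose by 0.82 in IR24 (limma adjusted p = 0.0126) and lost the call without constitutive replicate 1 or either 24 h array, and it was at 0.08 in FR13A (limma adjusted p = 0.844). The 3 tested probes named for autophagy proteins (AK063557, AK067737 and AK069012) were not among those that passed in this comparison.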
